A study of Homo sapiens with 16 samples.

Results

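The 49 genes described here encode the secreted and membrane-bound guidance cues of the semaphorin, ephrin, SLIT and netrin families, their plexin, neuropilin, EPH, ROBO, DCC and UNC5 receptors, and the cytoplasmic DPYSL proteins. They were taken from a list of symbols, all 49 of which were found among 19974 protein-coding genes in RefSeq's annotation of GRCh38. A gene was counted for a peak list when the summit of a peak fell inside its body or no more than 10 kb away. Their bodies ran from 7.02 to 1740 kb with a median of 131 kb, against a median of 24.2 kb over all protein-coding genes, and 21 of the 49 fell in the longest of 10 equal classes of gene length. Shares of genes with a summit are therefore also set beside the share of the 19925 other protein-coding genes weighted to the same length classes. Shares of peaks, of promoter windows and of genes with acetylated starts were not weighted by length.

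The chromatin came from A375, a long-established cell line of human melanoma. Serum was withdrawn for 2 h, and the cells then received recombinant human TGFB1 (10 ng/mL), the ligand of the TGF-beta receptors, for 2 h, or for the same time its carrier solution, 4 mM HCl containing BSA at 1 mg/mL. Chromatin immunoprecipitation and sequencing was done with antibodies to SMAD2/3 (the transcription factors that the activated receptors phosphorylate), H3K27ac (a histone acetylation found at active regulatory elements), MITF (the factor that directs pigment cell identity), and the leucine zipper factors ATF3 and JUNB, which belong to the AP-1 superfamily. Each antibody had 1 library with TGFB1 and 1 in vehicle, and 1 peak list came with each. Replicate spread is therefore unknown for every difference given, and no p-value was computed.

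Guidance cues steer growing axons by attraction or repulsion, and most of them act by reshaping the actin cytoskeleton of the receiving cell. Class 3 semaphorins are secreted and bind neuropilins, which signal through plexins, whereas the other vertebrate semaphorins mostly bind plexins directly. Ephrins and EPH receptor tyrosine kinases signal in both directions where cells touch, and many members of all these families also act outside the nervous system, in vessels, in migrating neural crest cells (from which pigment cells descend) and in tumours.

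The lists differed in length and in depth, which bears on every count below. They held 11406 peaks with TGFB1 and 1247 in vehicle for SMAD2/3, 80990 and 79172 for H3K27ac, 5037 and 5695 for MITF, 62997 and 49563 for ATF3, and 64407 and 38514 for JUNB, in the same order of treatments. The depth implied by the peak values was 1.09 times that of vehicle for the SMAD2/3 library with TGFB1, 1.08 times for H3K27ac, 1.0 times for MITF, 4.41 times for ATF3 and 1.4 times for JUNB. The labels' titles carry 3 dates, and both treatments of an antibody have the same one. SMAD2/3 and H3K27ac share the first date, MITF has its own, and ATF3 and JUNB share the last. Overlaps between antibodies of different dates therefore set libraries of different dates side by side. Of the pigment cell markers, MITF, SOX10 and PMEL had acetylated gene starts or ends in both treatments, while MLANA, TYR and DCT had none in either. Of 8 markers of other cell types, 3 (CD3E of leukocytes, RBFOX3 and SNAP25 of neurons) were acetylated there in both treatments, and PTPRC, EPCAM, CDH1, PECAM1 and CDH5 were not.

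The first comparison asked where SMAD2/3 lay at the guidance genes with and without the ligand. With TGFB1, 28 of the 49 genes (57.1%) held 65 SMAD2/3 summits, and in vehicle 1 gene, NTN4, held 1 summit. Over all protein-coding genes the share was 28.2% with TGFB1 and 1.77% in vehicle, and among the other genes weighted to the same lengths it was 39.5% with TGFB1 and 2.07% in vehicle. A peak is called TGFB1-only here when it overlapped no vehicle peak of the same antibody by 1 bp or more. TGFB1-only SMAD2/3 peaks lay at 27 of the 49 genes, where all protein-coding genes had 27.4% and the length-weighted others 38.8%. Vehicle-only SMAD2/3 peaks lay at none of the 49, against 0.396% of all protein-coding genes and 0.489% of the length-weighted others. With the TGFB1 list limited to its strongest 1247 peaks, the length of the vehicle list, 6 of the 49 genes (12.2%) kept a summit, against 3.61% of all protein-coding genes and 6.31% of the length-weighted others.

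**Figure D1:**
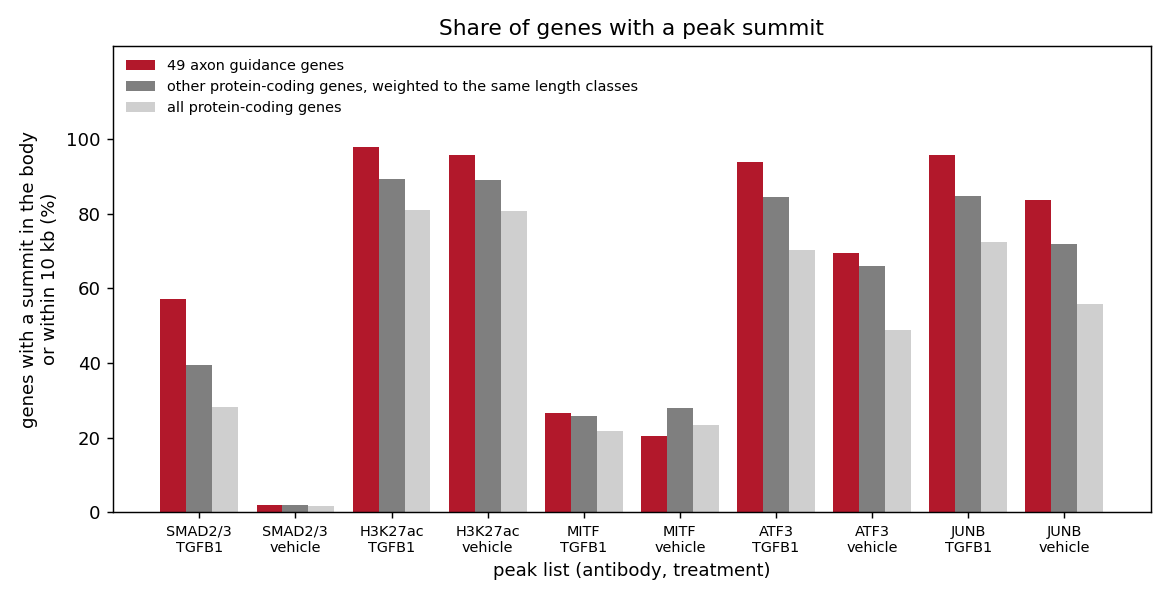
Share of genes (percent, vertical axis) with a peak summit in the body or within 10 kb, for each antibody and treatment (horizontal axis), in the 49 guidance genes (red), in other protein-coding genes weighted to the same length classes (dark grey) and in all protein-coding genes (light grey). The SMAD2/3 list with TGFB1 has 57.1% of the guidance genes beside 39.5% of length-weighted genes, and the MITF list in vehicle has 20.4% beside 27.9%.

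EPHA2, the receptor tyrosine kinase for ephrin A1, had the most SMAD2/3 summits of the 49, with 6 after TGFB1 and 0 in vehicle. Its body is 31.7 kb long, and 0.251% of genes in its length class reached 6 summits. NRP1 and NRP2, the neuropilins that bind class 3 semaphorins and vascular endothelial growth factors, followed with 5 each after TGFB1 and 0 in vehicle, a count reached by 5.97% of the length class of NRP1 and by 1.01% of that of NRP2. SEMA3A and SEMA3C, secreted ligands of these neuropilins, had 4 each, as did DPYSL2, the cytoplasmic protein through which SEMA3A collapses growth cones. That count was reached by 10.7% of the length class that SEMA3A and SEMA3C share and by 2.46% of that of DPYSL2. SEMA3B (a secreted semaphorin), SEMA6A (a transmembrane semaphorin) and SLIT3 (a ROBO ligand) had 3 each, a count reached by 2.41% of the length class of SEMA3B, 6.78% of that of SEMA6A and 16.4% of that of SLIT3. All of these stood at 0 in vehicle.

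The remaining SMAD2/3 summits with TGFB1 were spread thinly. SEMA4C, SEMA7A, PLXNA3, PLXNA4, PLXND1, EPHB2, EFNA1, EFNA5 and UNC5C had 2 each, and SEMA3D, SEMA6D, PLXNA1, PLXNB1, PLXNB3, EPHA4, EPHB3, EPHB4, ROBO1 and NTN4 had 1 each. The other 21 genes had none in either treatment. By role, SMAD2/3 reached 4 of 6 class 3 semaphorins, 4 of 11 semaphorins of classes 4 to 7, 8 of 11 plexins and neuropilins, 5 of 6 EPH receptors, 2 of 4 ephrins, 2 of 4 SLIT and ROBO genes, 2 of 5 genes of the netrin, DCC and UNC5 group and 1 of 2 DPYSL genes. EPHA3 was the EPH receptor of the list without it, and EPHA1 alone held it among the further EPH receptors counted below. No background share was computed for single roles. Of all 49 genes 57.1% held SMAD2/3, against 28.2% of all protein-coding genes and 39.5% of the length-weighted others. Neighbouring genes share some of these peaks: 11 of the 65 also counted for a gene outside the list, and EFNA1, EPHB4, PLXNA3, PLXNB1, SEMA3B and SEMA4C were counted through such peaks alone, which leaves 22 genes without them. The neighbours concerned were SLC50A1 for EFNA1, ZAN for EPHB4, FAM50A, LAGE3, UBL4A and SLC10A3 for PLXNA3, CCDC51 for PLXNB1, GNAI2 and LSMEM2 for SEMA3B, and FAM178B and LOC124908044 for SEMA4C.

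**Figure D2:**
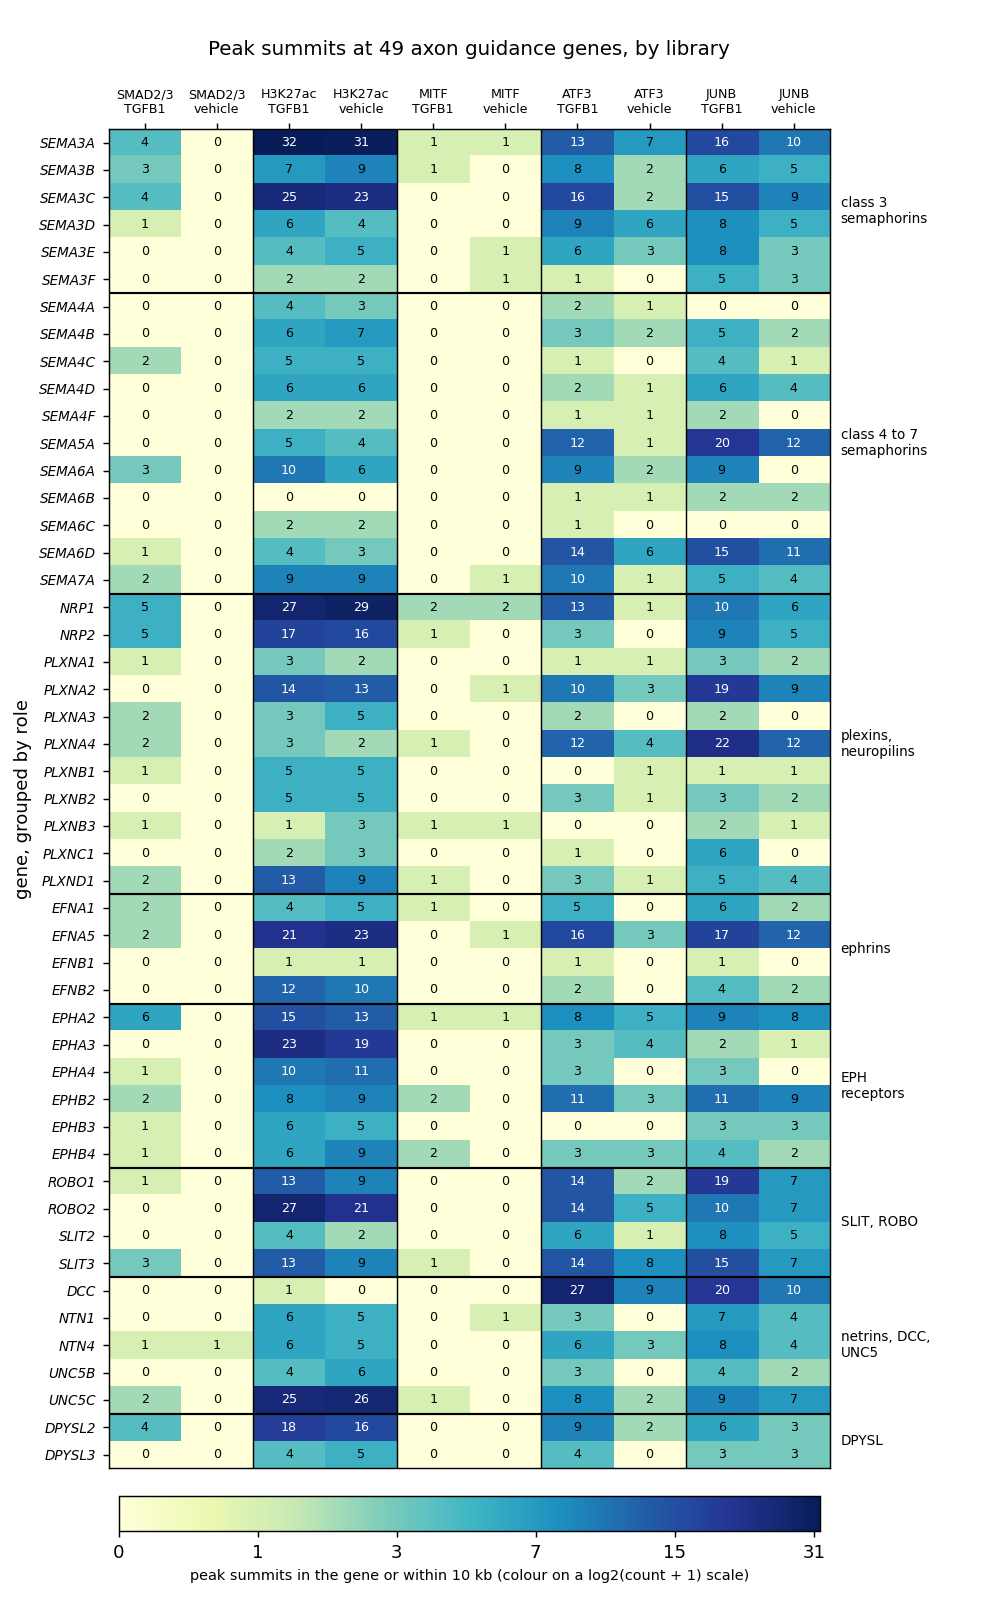
Peak summits in the gene body or within 10 kb for each of the 49 guidance genes (rows, grouped by role) in each of the 10 peak lists (columns, TGFB1 left of vehicle for each antibody). The colour follows log2(count + 1) and the number in each cell is the count. The SMAD2/3 vehicle column is 0 in every row but NTN4, and the H3K27ac columns are similar in both treatments.

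The strongest single SMAD2/3 site belonged to PLXND1, the plexin that receives SEMA3E. The peak at chr3:129611963-129612971 (GRCh38, as are all coordinates) lay 5.52 kb upstream of the gene, in the flank and in no other gene's window. Its fold enrichment was 29.43 with a -log10 p of 160 (both values are the authors' own for the peak), rank 24 of the 11406 peaks with TGFB1, and no vehicle peak overlapped it. It coincided with JUNB and H3K27ac peaks of both treatments and with ATF3 and MITF peaks of the TGFB1 libraries alone. PLXND1 held 1 more SMAD2/3 summit, 0.301 kb from its start, with a fold enrichment of 3.45.

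EPHB2, a receptor for ephrin B ligands, had the next strongest site, inside the gene 36.8 kb from its nearest listed start. The peak at chr1:22747453-22747734 had a fold enrichment of 14.72 and a -log10 p of 56.2 (rank 304). It lay on the JUNB site at chr1:22747340-22747862, which ranked 12 of 64407 in the JUNB list with TGFB1 and was shared with vehicle, and on TGFB1-only ATF3 and MITF peaks. No H3K27ac peak of either treatment touched it. The third site, inside NRP1 at chr10:33264203-33264594, had a fold enrichment of 17.16 and a -log10 p of 35.9, and it is the only SMAD2/3 site of the 49 genes that also carried a MITF peak called in both treatments.

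UNC5C, a repulsive netrin receptor, had a SMAD2/3 peak deep in the gene at chr4:95304811-95305287, 244 kb from its start, with a fold enrichment of 15.98 and a -log10 p of 32.7. It carried JUNB of both treatments and ATF3 with TGFB1, and no H3K27ac. SEMA3B had its strongest peak at chr3:50268843-50269269, 0.075 kb from a listed start (fold enrichment 9.22, -log10 p 32.4), a site that also counts for GNAI2 and LSMEM2. NTN4, a basement membrane netrin, had the only SMAD2/3 site found in both treatments, 8.27 kb downstream of the gene. It had a fold enrichment of 6.73 and a -log10 p of 11.3 at chr12:95649405-95649649 with TGFB1, and 6.08 and 9.52 at chr12:95649165-95649475 in vehicle.

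The other EPHA2 sites were weaker and more numerous. With TGFB1 its strongest SMAD2/3 peak lay 1.22 kb past the gene's end at chr1:16122972-16123255 (fold enrichment 11.13, -log10 p 27.5) and carried none of the other marks in either treatment. A set of 4 peaks lay in the body between 9.64 and 16.9 kb from the start, all of them on H3K27ac and JUNB called in both treatments. The sixth, 8.29 kb upstream at chr1:16164290-16164472, lay on ATF3 and JUNB peaks of both treatments. It also overlapped MITF and H3K27ac peaks of the TGFB1 libraries and none of either mark in vehicle. NRP2 held its 5 sites within the first 39.5 kb of a body of 116 kb, all on H3K27ac of both treatments.

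**Figure D3:**
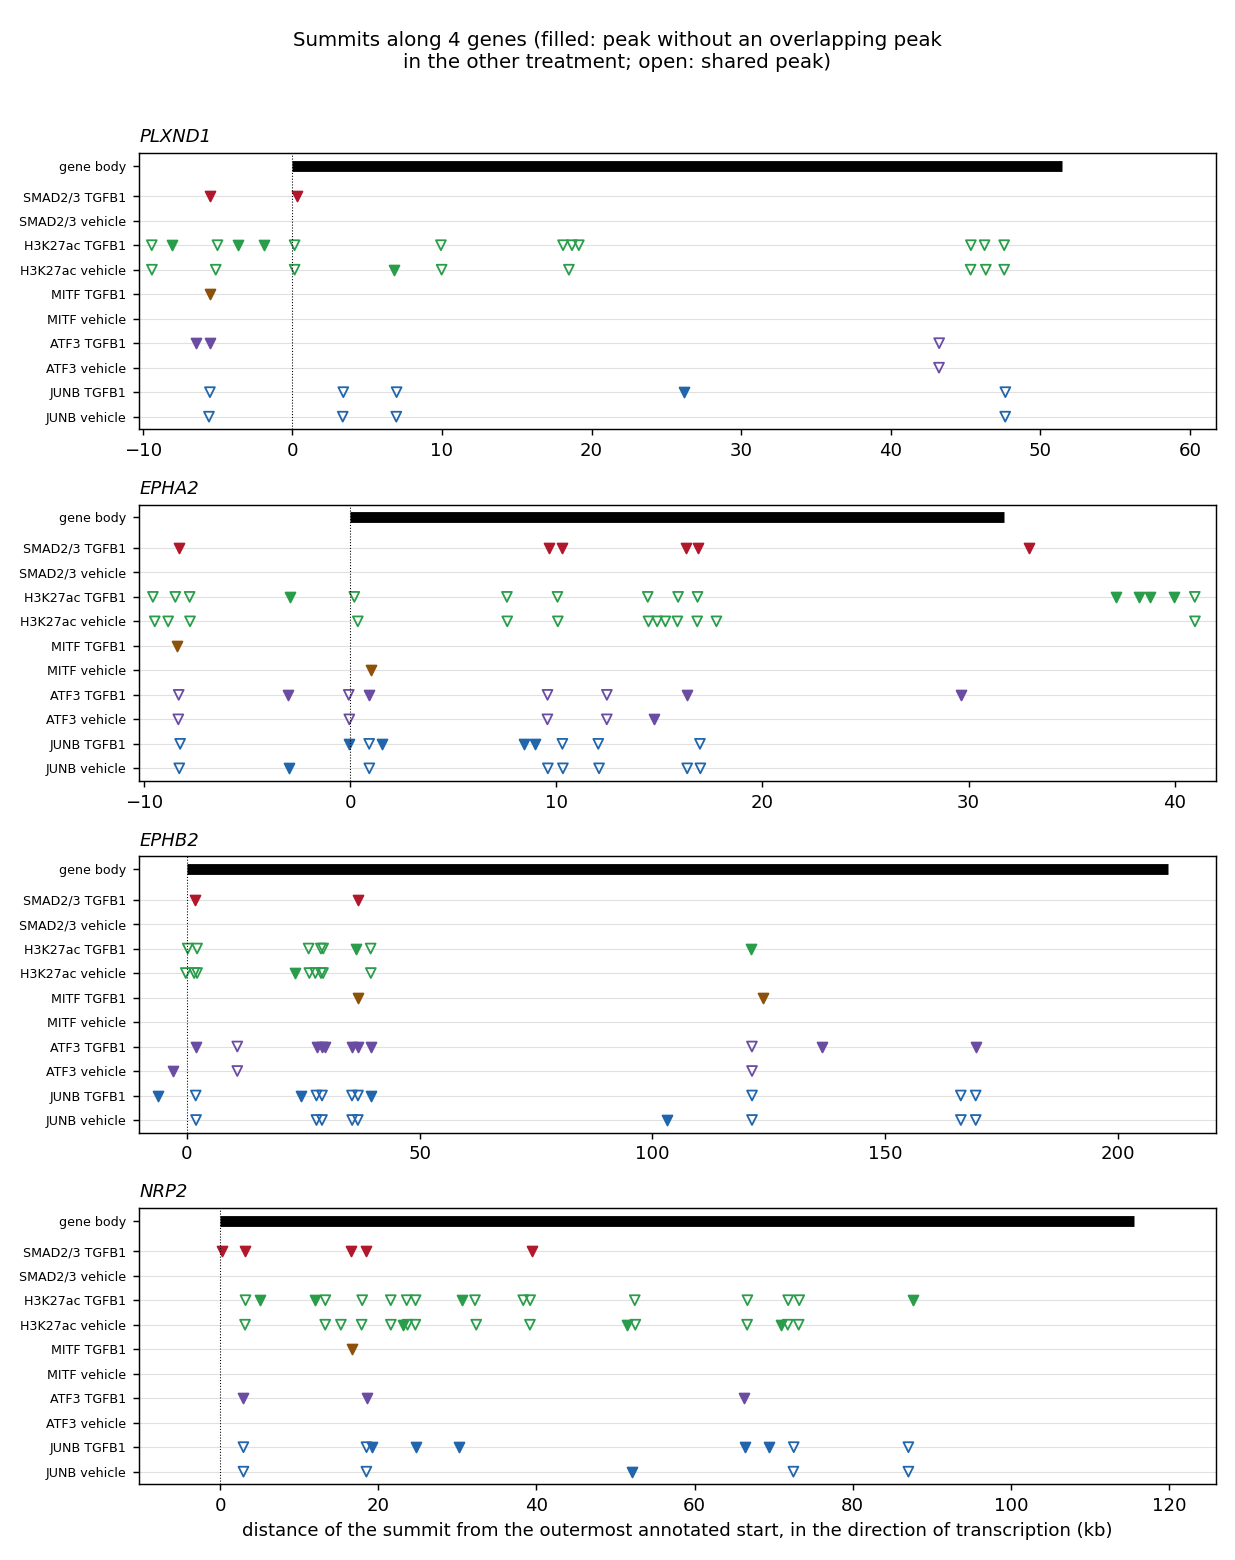
Positions of peak summits along PLXND1, EPHA2, EPHB2 and NRP2, as distance from the outermost annotated start in the direction of transcription (kb, horizontal axis), with 1 line for each peak list (TGFB1 above vehicle). Filled symbols are peaks without an overlapping peak in the other treatment, open symbols are shared peaks, and the black bar is the gene body. All SMAD2/3 symbols in the 4 genes are filled, and in PLXND1 the SMAD2/3, MITF, ATF3 and JUNB summits with TGFB1 stack 5.52 kb upstream.

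Most SMAD2/3 sites of the guidance genes lay away from promoters. The guidance genes are long (median body 131 kb, against 24.2 kb over all protein-coding genes), and locations were not counted for other genes. Of the 65 summits with TGFB1, 47 lay in gene bodies more than 1 kb from a start, 9 lay within 1 kb of a listed start, 2 lay at the end of a gene whose start is not listed, 3 lay upstream and 4 downstream. The starts concerned were those of EFNA1, EPHA4, NRP2, PLXNA3, PLXNB1, PLXND1, SEMA3B and SEMA3C. The typical strength was close to that of the whole list: TGFB1-only peaks at the guidance genes had a median fold enrichment of 6.0, and all 10761 TGFB1-only peaks one of 5.78.

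The bases before 4 outermost starts are shown because a summit of SMAD2/3 lay within them, or summits of ATF3 in both treatments around a TGACGTCA match. RefSeq promoter windows for GRCh38.p14 cover 42 of the 49 genes with 66 windows, each from 250 bases before a start to 50 after it. The 250 upstream bases below run in the direction of transcription, and capitals mark CAGAC (the SMAD binding element) or TGACGTCA (the cyclic AMP response element, bound by ATF family factors), searched on both strands together with TGANTCA (the AP-1 site) and CACGTG (the E-box that MITF binds). No match in these 4 sequences overlapped another. EPHA2 is on the minus strand of chr1:16156070-16156319, SEMA3B on the plus strand of chr3:50259976-50260225, EFNA1 on the plus strand of chr1:155127626-155127875 and PLXNA3 on the plus strand of chrX:154458031-154458280.
EPHA2: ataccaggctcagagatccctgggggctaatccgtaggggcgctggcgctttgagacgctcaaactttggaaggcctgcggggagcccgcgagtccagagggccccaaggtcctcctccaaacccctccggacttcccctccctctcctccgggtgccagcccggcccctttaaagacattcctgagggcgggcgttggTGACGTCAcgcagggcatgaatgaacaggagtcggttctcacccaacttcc
SEMA3B: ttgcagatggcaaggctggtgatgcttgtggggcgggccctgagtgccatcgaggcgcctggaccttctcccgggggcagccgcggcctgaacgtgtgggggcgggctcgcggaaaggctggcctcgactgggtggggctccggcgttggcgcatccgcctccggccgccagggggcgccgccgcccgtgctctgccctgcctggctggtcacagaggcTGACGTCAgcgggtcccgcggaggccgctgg
EFNA1: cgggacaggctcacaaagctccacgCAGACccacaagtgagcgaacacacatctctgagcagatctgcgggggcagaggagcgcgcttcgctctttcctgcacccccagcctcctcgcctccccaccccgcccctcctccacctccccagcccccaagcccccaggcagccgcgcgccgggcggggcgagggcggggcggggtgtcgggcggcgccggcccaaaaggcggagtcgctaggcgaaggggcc
PLXNA3: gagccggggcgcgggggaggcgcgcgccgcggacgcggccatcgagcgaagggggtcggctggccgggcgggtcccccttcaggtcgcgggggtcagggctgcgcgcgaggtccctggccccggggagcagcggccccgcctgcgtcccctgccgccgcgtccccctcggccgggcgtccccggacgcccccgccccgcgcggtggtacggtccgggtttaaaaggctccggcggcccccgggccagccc

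In EPHA2 the response element lay from -51 to -44 relative to the start. The ATF3 summit with TGFB1 lay at -75 and the vehicle one at -48, in peaks that overlapped each other with fold enrichments of 9.23 with TGFB1 and 5.63 in vehicle. A JUNB summit lay at -45 in a TGFB1-only peak with a fold enrichment of 6.06. In SEMA3B the element lay from -31 to -24, and the ATF3 summit lay at -28 with TGFB1 (fold enrichment 22.57) and at -16 in vehicle (fold enrichment 8.28). JUNB summits lay at -5 with TGFB1 and at -62 in vehicle of the same SEMA3B start. The ATF3 libraries differed 4.41 times in implied depth, so the fold enrichments of the ATF3 lists stand side by side here and are not compared. The 250 bases before 2 more outermost starts also held a summit and are not shown. DCC had a TGFB1-only JUNB summit at -63 (fold enrichment 4.83) with 3 matches to CAGAC, counting both strands, and DPYSL3 had a TGFB1-only ATF3 summit at -138 (fold enrichment 6.2) with none of the 4 motifs.

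SMAD2/3 summits with TGFB1 lay at -124 in the EFNA1 sequence, which holds CAGAC from -225 to -221, and at -107 in the PLXNA3 sequence, which holds none of the 4 motifs. CAGAC matched 30 of the 66 windows of the guidance genes (45.5%) and 44.9% of all 22012 windows. TGACGTCA was rarer, with 3 windows of the guidance genes (EPHA2, SEMA3B and SEMA4C, 4.55%) and 2.25% of all windows. TGANTCA matched 1.52% of the guidance windows and 6.16% of all windows, and CACGTG 4.55% and 8.32%. Over all windows, an ATF3 summit with TGFB1 lay in 45.1% of those with TGACGTCA and in 7.38% of those without, and in vehicle in 17.6% and 2.38%. A SMAD2/3 summit with TGFB1 lay in 3.88% of the windows with CAGAC and in 4.0% of those without. SEMA4C is the guidance gene that held the element with no ATF3 summit in the window.

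The next comparison asked which other factors and marks lay on the SMAD2/3 sites. Of the 65 SMAD2/3 peaks at guidance genes, 78.5% overlapped H3K27ac with TGFB1 and 75.4% in vehicle, where the 7071 peaks at other protein-coding genes had 83.8% with TGFB1 and 78.4% in vehicle. JUNB with TGFB1 lay on 63.1% of them and on 60.1% of the peaks at other genes, and JUNB in vehicle on 47.7% and 44.2%. ATF3 with TGFB1 lay on 52.3% of the peaks at guidance genes and 42.3% of those at other genes, and ATF3 in vehicle on 9.23% and 14.5%. The implied depth of the ATF3 library with TGFB1 was 4.41 times that of the one in vehicle, and the part of depth in these values was not tested. MITF with TGFB1 lay on 10.8% and 11.1%, and MITF in vehicle on 3.08% (2 of the 65) and 11.7%. Without any of the 4 other marks in TGFB1-treated cells were 4 of the 65 (6.15%), close to the 6.27% at other genes.

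**Figure D4:**
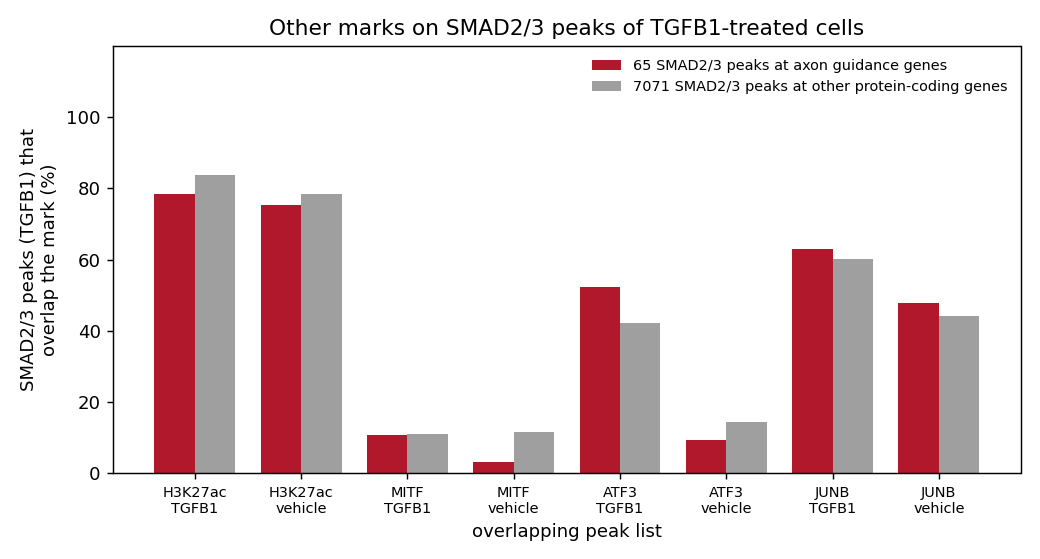
Share of SMAD2/3 peaks of TGFB1-treated cells (percent, vertical axis) that overlapped a peak of each other list by at least 1 bp (horizontal axis, TGFB1 left of vehicle), for the 65 peaks at guidance genes (red) and the 7071 at other protein-coding genes (grey). The widest gaps are ATF3 with TGFB1 (52.3% and 42.3%) and MITF in vehicle (3.08% and 11.7%).

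Acetylation of H3K27 covered nearly the whole group in both treatments. With TGFB1, 48 of the 49 genes held 449 summits, and in vehicle 47 held 422, where all protein-coding genes had 80.9% with TGFB1 and 80.7% in vehicle. The length-weighted others had 89.3% with TGFB1 and 89.0% in vehicle. SEMA6B, a transmembrane semaphorin, had none in either treatment, and DCC, the netrin receptor, had 1 with TGFB1 and 0 in vehicle. More summits with TGFB1 than in vehicle were counted at 24 genes, fewer at 15 and equal numbers at 10. Over all protein-coding genes 22.8% had more with TGFB1 and 24.6% fewer, and among the length-weighted others 30.3% had more and 28.3% fewer.

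At gene starts H3K27ac lay within 1 kb of a listed start in 37 of 42 guidance genes with TGFB1 and in 36 of 42 in vehicle, against 68.7% and 68.5% of the other protein-coding genes with a listed start. These shares of the other genes were not weighted by length. SEMA4A, SEMA4D, SEMA5A, PLXNA4 and DCC had no acetylated start in either treatment, and SEMA3A and SEMA6B, whose starts are not listed, had no acetylated gene end. SLIT3 had an acetylated start with TGFB1 alone, in a peak at chr5:169300666-169301038 with a fold enrichment of 4.46.

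Treatment-only acetylation was more scattered than SMAD2/3. TGFB1-only H3K27ac peaks lay at 30 of the 49 genes (61.2%, 102 summits), where all protein-coding genes had 31.5% and the length-weighted others 47.4%. Vehicle-only peaks lay at 27 of the 49 (55.1%, 68 summits), where all protein-coding genes had 30.6% and the length-weighted others 44.3%. Both kinds lay at 20 genes, TGFB1-only peaks alone at 10 (SEMA4C, SEMA6A, SEMA6D, PLXNA4, EPHA2, EPHB3, SLIT2, ROBO1, NTN1 and DCC), vehicle-only peaks alone at 7 (SEMA3E, SEMA4D, PLXNA3, PLXNB3, PLXNC1, EPHB4 and DPYSL3) and neither at 12. This split was not counted over other protein-coding genes, so it has no background share.

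The genes with the most one-sided acetylation came from different families. ROBO1, the SLIT receptor, had 7 TGFB1-only and 0 vehicle-only H3K27ac summits, EPHA2 had 5 and 0, and SEMA6A, a transmembrane ligand of A-type plexins, also had 5 and 0. SLIT3 had 6 TGFB1-only and 1 vehicle-only summits, and DPYSL2 had 5 and 1. ROBO2 had 11 TGFB1-only and 5 vehicle-only summits in the longest body of the group. On the other side EFNA5, an ephrin of the membrane-anchored A type, had 1 TGFB1-only and 6 vehicle-only summits. SEMA3A had many of both kinds, with 10 TGFB1-only and 7 vehicle-only summits. Within the TGFB1 list, the median fold enrichment at guidance genes was 4.43 for TGFB1-only peaks and 6.88 for the 347 shared ones.

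**Figure D5:**
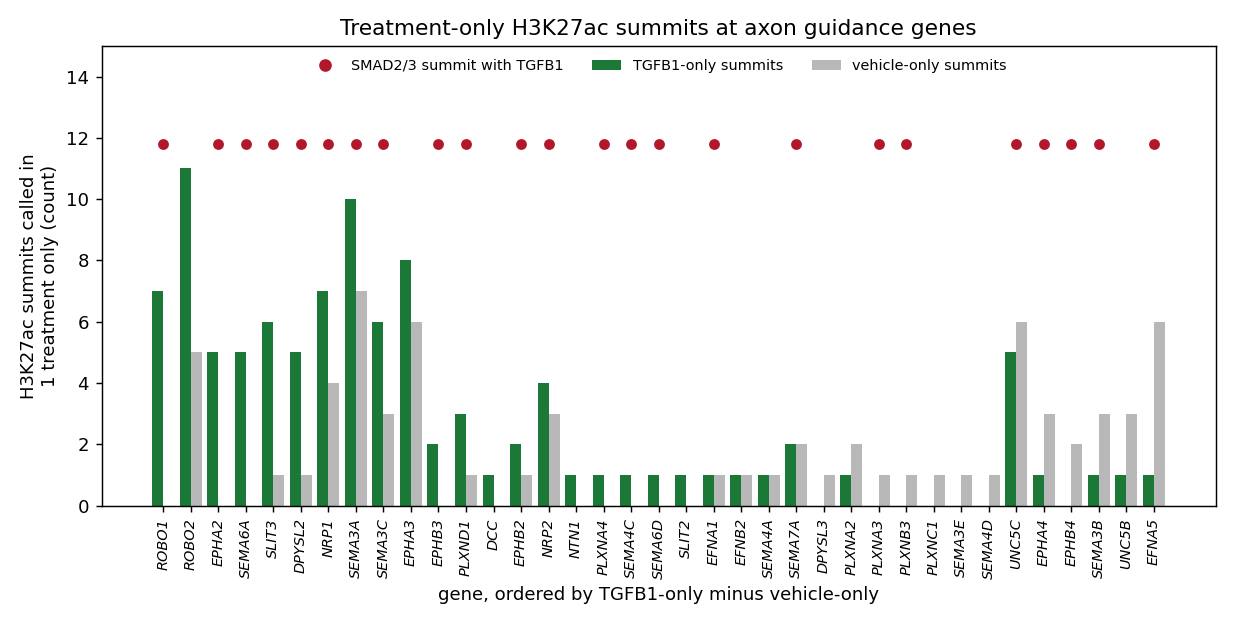
Number of H3K27ac summits called in 1 treatment only (vertical axis) at the 37 guidance genes with any, as TGFB1-only (green, left bar) and vehicle-only (grey, right bar) counts, ordered by their difference. Red dots mark genes with a SMAD2/3 summit after TGFB1. ROBO1, ROBO2, EPHA2, SEMA6A and SLIT3 stand at the TGFB1 end, and EFNA5 stands at the vehicle end, followed by EPHA4, EPHB4, SEMA3B and UNC5B at an equal difference.

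TGFB1-only acetylation seldom lay on the SMAD2/3 site itself. Of the 102 TGFB1-only H3K27ac peaks at guidance genes, 1 (0.98%) overlapped a SMAD2/3 peak, against 3.13% of all TGFB1-only H3K27ac peaks. That peak lay in SLIT3 at chr5:168712229-168712635, with a fold enrichment of 8.54. Counted over the 65 SMAD2/3 peaks, 3 (4.62%) touched an H3K27ac peak with TGFB1 and none in vehicle, against 6.99% at other genes. These SMAD2/3 peaks lay at EPHA2, EFNA5 and SLIT3. Of the 347 shared H3K27ac peaks, 50 (14.4%) carried SMAD2/3, against 12.9% of all shared peaks, and of the 68 vehicle-only peaks none did, against 0.481%. At PLXND1 the SMAD2/3 site itself was acetylated in both treatments, and the TGFB1-only peaks lay nearer the gene, 3.63 kb upstream at chr3:129610141-129610671 (-log10 p 29.7) and 1.9 kb upstream at chr3:129608107-129609684 (-log10 p 22.8). The first of these had the highest -log10 p of all TGFB1-only H3K27ac peaks at guidance genes, followed by a peak inside DPYSL2 (26.7), 50.2 kb from the gene's nearer end.

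The strongest acetylation of the group was shared between treatments. In the TGFB1 list the highest values were at the SEMA3B start (fold enrichment 27.94, -log10 p 281), 8.69 kb past PLXNA3 in UBL4A (-log10 p 254), inside DPYSL2 and at the SEMA4C start (-log10 p 245 for both). Vehicle-only peaks of highest -log10 p lay inside EFNA5 and SEMA3A (14.0 each), PLXNC1 (13.4) and EPHA4 (11.7). None of these 4 carried any other mark in either treatment.

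JUNB and ATF3 were called at nearly all guidance genes with TGFB1. JUNB summits lay at 47 of the 49 genes with TGFB1 and at 41 in vehicle (377 and 211 summits), where all protein-coding genes had 72.5% and 55.9% and the length-weighted others 84.8% and 72.0%. TGFB1-only JUNB peaks lay at 45 genes and vehicle-only peaks at 25, where all protein-coding genes had 62.3% and 28.9% and the length-weighted others 76.9% and 43.7%. JUNB summits were more numerous with TGFB1 at 43 genes, equal at 6 and fewer at none. Over all protein-coding genes 53.0% had more and 9.01% fewer, and among the length-weighted others 65.7% had more and 8.9% fewer. The ratio of summits was 1.79 at the guidance genes and 1.76 summed over all protein-coding genes.

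SEMA6A showed the JUNB pattern most sharply, with 9 summits after TGFB1 and 0 in vehicle. Its SMAD2/3 peaks, 3 with TGFB1 and 0 in vehicle, all overlapped TGFB1-only JUNB peaks and H3K27ac of both treatments. The strongest of these JUNB peaks, at chr5:116455159-116455407, had a fold enrichment of 10.94 and a -log10 p of 32.7. PLXNC1, the receptor of SEMA7A, had 6 JUNB summits with TGFB1 and 0 in vehicle, and SEMA4F, PLXNA3, EPHA4 and EFNB1 also had JUNB with TGFB1 alone, at 1 to 3 summits. The count with TGFB1 was reached by 7.34% of the length class for SEMA6A and 53.6% for PLXNC1. For the other 4 genes that share was 62.8% (SEMA4F), 41.4% (PLXNA3), 79.7% (EPHA4) and 66.5% (EFNB1). Genes with JUNB in the TGFB1 list alone were not counted over other genes, and the implied depth of the JUNB pair differed 1.4 times. PLXNA4 had the most JUNB summits of the group, with 22 after TGFB1 and 12 in vehicle.

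The strongest JUNB sites were shared with vehicle. They were the EPHB2 site (-log10 p 290), NRP1 at chr10:33263497-33264721 (243), PLXND1 at chr3:129611864-129613299 (177) and SEMA3E at chr7:83468287-83468596 (175), the last in a gene without SMAD2/3. The TGFB1-only JUNB peaks of highest -log10 p lay inside SEMA6D (62.7), PLXNA2 (60.8), EPHB2 (49.7) and PLXNA4 (46.4), none of them on SMAD2/3. The vehicle-only ones lay at SLIT3 (15.2), DPYSL2 (14.8), SEMA6D (11.2) and EPHA2 (10.6).

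ATF3 summits lay at 46 of the 49 genes with TGFB1 and at 34 in vehicle (317 and 98 summits), where all protein-coding genes had 70.2% and 48.8% and the length-weighted others 84.5% and 66.1%. TGFB1-only ATF3 peaks lay at 45 genes and vehicle-only peaks at 23, where all protein-coding genes had 63.6% and 31.5% and the length-weighted others 79.9% and 48.4%. ATF3 summits were more numerous with TGFB1 at 41 genes, equal at 6 and fewer at EPHA3 and PLXNB1. Over all protein-coding genes 54.2% had more and 10.5% fewer, and among the length-weighted others 69.1% had more and 9.32% fewer. The implied depth of the libraries, which differed 4.41 times, moves with this difference and cannot be told apart from the treatment.

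The ATF3 sites of highest -log10 p were found in both treatments. NTN4 had the first, inside the gene at chr12:95763720-95764431, with a fold enrichment of 47.28 in the TGFB1 list and 14.63 in the vehicle list, which differ in depth as given above. EPHA2 had the next, 8.33 kb upstream at chr1:16164202-16164715 (28.06), then SEMA6A inside the gene (42.67) and SLIT3 downstream (42.34). The TGFB1-only ATF3 peaks of highest -log10 p lay inside EPHB2 (51.9), on its SMAD2/3 site, and inside SEMA5A (51.7), SEMA7A (50.7) and SEMA3E (49.2). The vehicle-only ones, inside EFNA5 (10.7), SEMA6D (10.6), EPHA3 (10.4) and SLIT3 (9.55), carried no other factor.

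MITF, which sets the pigment cell programme, was called at a minority of genes in either treatment, guidance genes and others alike. With TGFB1, 13 of the 49 genes held 16 summits, and in vehicle 10 held 11, where all protein-coding genes had 21.7% and 23.3% and the length-weighted others 25.9% and 27.9%. TGFB1-only MITF peaks lay at 12 of the 49 genes (24.5%), where all protein-coding genes had 10.7% and the length-weighted others 14.2%. Vehicle-only MITF peaks lay at 9 (18.4%), where all protein-coding genes had 12.8% and the length-weighted others 16.4%. The ratio of TGFB1 to vehicle summits was 1.45 at guidance genes and 0.918 over all protein-coding genes, on counts of 16 and 11.

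Both treatments had MITF at SEMA3A, PLXNB3, NRP1 and EPHA2, and only in NRP1 were they the same sites, at chr10:33264314-33264624 and chr10:33307201-33307394. MITF with TGFB1 and not in vehicle was found at SEMA3B, PLXNA4, PLXND1, NRP2, EPHB2, EPHB4, EFNA1, SLIT3 and UNC5C. MITF in vehicle and not with TGFB1 was found at SEMA3E, SEMA3F, SEMA7A, PLXNA2, EFNA5 and NTN1. By number, MITF summits were more numerous with TGFB1 at 9 guidance genes, equal at 34 and fewer at 6. Over all protein-coding genes 8.99% had more and 11.1% fewer, shares that were not weighted by length. No guidance gene had more than 2 MITF summits in either treatment, so these differences rest on few peaks. The strongest TGFB1-only MITF peaks were at EPHB4 (-log10 p 18.1, inside the neighbouring SLC12A9), NRP2 (11.9), EPHB2 (11.6) and SLIT3 (11.3). The strongest vehicle-only ones were in SEMA3A (13.4), PLXNA2 (11.2), near EFNA5 (10.9) and in SEMA3F (10.7).

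All 13 guidance genes with MITF after TGFB1 were among the 28 with SMAD2/3, and none was among the 21 without it. For the length-weighted other genes the shares with MITF were 37.4% where SMAD2/3 was present and 18.2% where it was absent. In vehicle, MITF lay at 6 of the 28 and at 4 of the 21, and the other genes had 40.4% and 19.9%. On single sites, 6 of the 14 TGFB1-only MITF peaks at guidance genes (42.9%) overlapped a SMAD2/3 peak, against 26.3% of all TGFB1-only MITF peaks, and 1 of the 9 vehicle-only ones (11.1%) did, against 24.9%. All 5 antibodies had summits with TGFB1 at 12 genes (24.5%), where all protein-coding genes had 8.97% and the length-weighted others 14.3%. The 12 were SEMA3A, SEMA3B, PLXNA4, PLXND1, NRP1, NRP2, EPHA2, EPHB2, EPHB4, EFNA1, SLIT3 and UNC5C.

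Within each family the totals over all 10 lists varied widely, and long genes led most of them. SEMA3A had 115 summits and SEMA3F, the class 3 semaphorin with the fewest, had 14. SEMA5A and SEMA6D had 54 each and SEMA6C had 5, NRP1 had 95 and PLXNB3 10, EPHA2 66 and EPHB3 18, and EFNA5 95 and EFNB1 4. ROBO2 had 84 and SLIT2 26, UNC5C 80 and UNC5B 19, and DPYSL2 58 and DPYSL3 19. EPHA2 led the EPH receptors with a body of 31.7 kb, whereas EPHA3, in the longest length class, held no SMAD2/3.

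Related genes outside the 49 were counted in the same way. Their lists were chosen with earlier results of these data known, so the shares below describe the listed genes only. Of 31 further family members, such as the remaining EPH receptors, ephrins and netrins, 5 (16.1%) held SMAD2/3 with TGFB1, against 34.2% of length-weighted other genes. These 5 were EPHA1, SLIT1, ROBO3, ROBO4 and RGMB, with 1 summit each. ROBO3 and ROBO4 are neighbours and were counted through the same summit, so these 5 genes had 4 distinct summits. In vehicle NTN5 alone had 1. Of 26 cytoplasmic signalling partners of the receptors, 19 (73.1%) held SMAD2/3, against 41.7% of length-weighted others, and none did in vehicle. The strongest were at ARHGEF11, a guanine nucleotide exchange factor that B-type plexins recruit, with a fold enrichment of 19.7 and a -log10 p of 64.1, at VAV2, also an exchange factor (48.3), at LIMK1, the kinase of cofilin (42.9), and at ABLIM1, an actin-binding LIM protein (19.8).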

How the data were processed

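Peak lists of 10 immunoprecipitated libraries of A375 cells were analysed, 1 for each of 5 antibodies and 2 treatments, and the 6 inputs were not analysed here. Per the submitters' processing notes, the authors used Bowtie, MACS2 (version 2.0) and GRCh38. Replicate handling, duplicate removal and the input set against each library are not given in the sources used here. The fold enrichment ratio and the -log10 p and -log10 q of each peak are the authors' deposited values, while the deposited score, which follows the -log10 q, was left aside. Every list starts at a -log10 q of 1.3 to 1.43, near a q of 0.05. Values of single peaks rank peaks only within their own list. Where a site has values in both treatments they are given side by side and not compared, since depth differed.

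Summits (peak start plus summit offset) were counted in the RefSeq body of each of 19974 protein-coding genes or within 10 kb. The length-weighted share is the share of other genes in each of 10 length classes, weighted to the classes of the 49. Peaks overlapped when they shared 1 bp. Promoter windows of 300 bases came from RefSeq (GRCh38.p14), and for the 7 genes without a listed start both gene ends stood in. Counts and overlaps were checked on simulated data, where the counts of all 19974 genes equalled direct counting, and 97.2% of 500 simulated pileups were recovered. The pileup check covers the arithmetic alone, since no library of known depth was simulated. Depths were implied from fold enrichment and -log10 p over an assumed genome of 2.7 Gb, at 10.2 M reads with TGFB1 and 9.37 M in vehicle for SMAD2/3, 23.2 and 21.5 for H3K27ac, 7.4 and 7.39 for MITF, 28.1 and 6.37 for ATF3, and 47.7 and 34.1 for JUNB. These are estimates, and the shortest SMAD2/3 peaks, of 183 bp with TGFB1 and 311 bp in vehicle, show that the read extension differed.

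The 49 genes and the lists of 31 family members, 26 signalling partners and 14 cell type markers were chosen with earlier results of these data known. Named were all genes with SMAD2/3, the genes with the most and the fewest summits of each role, the 4 peaks of highest -log10 p for each antibody and class, and up to 4 genes outside the 49. Other genes were named after their values were seen. Python 3.11.15, pandas 2.3.3, numpy 2.4.6, scipy 1.17.1 and matplotlib 3.10.9 were used. With 1 library per group no test was run. Alternatives were stricter -log10 q and fold thresholds, other gene windows, equal list lengths and stricter overlaps.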

Additional observations from a re-analysis of the deposited data

How the results depend on the processing

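Of 159 recomputed values, 135 stayed within 1.5 times the count or within the counting interval of the value given above, among them all 22 under assignment to the nearest gene. With peaks of fold enrichment 6 or more, SMAD2/3 lay at 18 genes with TGFB1 and TGFB1-only SMAD2/3 at 17, MITF at 6 with TGFB1 and at 6 in vehicle, TGFB1-only and vehicle-only MITF at 5 each, ATF3 in vehicle at 19, vehicle-only ATF3 at 6 and vehicle-only JUNB at 10. With equal list lengths, SMAD2/3 and its TGFB1-only peaks lay at 6 genes each and vehicle-only SMAD2/3 at 1. Within gene bodies alone, SMAD2/3 in vehicle lay at 0 genes, MITF with TGFB1 at 8 and TGFB1-only MITF at 7, and with 25 kb flanks MITF in vehicle lay at 16. At a -log10 q of 5 or more, vehicle-only ATF3 lay at 12 genes and 77.8% of the SMAD2/3 peaks overlapped JUNB. With a reciprocal overlap of 50%, vehicle-only SMAD2/3 lay at 1 gene and vehicle-only H3K27ac at 41, and 35.4% of the SMAD2/3 peaks overlapped JUNB with TGFB1 and 1.54% H3K27ac in vehicle. With the summit inside the other peak, vehicle-only SMAD2/3 lay at 1 gene and 49.2% overlapped H3K27ac in vehicle. Apart from these constructions the cause was not tested.

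The listed guidance genes held SMAD2/3 with TGFB1 more often than length-weighted genes in every window tried. The shares were 51.0% against 31.9% in bodies alone and 63.3% against 45.5% with 25 kb flanks. They were 57.1% against 36.1% by nearest gene and 44.9% against 29.6% at a -log10 q of 5. These settings reuse the same peak list and the same genes, which were chosen with earlier results of these data known. The 31 further family members, counted with 10 kb flanks, went the other way, at 16.1% against 34.2%. The excess therefore describes the listed genes and is not shown for their families as a whole. No paired analysis was possible because each antibody and treatment had 1 library. The design text speaks of technical triplicates, which the labels do not list. A peak absent from the shallower list, as for ATF3, may lie under its calling threshold. Peaks assigned by distance need not act on the gene counted, and no expression was measured here.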

Other observations

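Some guidance genes carried AP-1 factors in number with TGFB1 and no SMAD2/3 in either treatment. DCC, a netrin receptor with a body of 1200 kb, had 27 ATF3 summits with TGFB1 and 9 in vehicle, and 20 JUNB summits with TGFB1 and 10 in vehicle, while H3K27ac had 1 and 0. SEMA5A, a transmembrane semaphorin, had 12 ATF3 summits with TGFB1 and 1 in vehicle and 20 JUNB summits with TGFB1 and 12 in vehicle. EPHA3, an ephrin A receptor, stood the other way, with 23 H3K27ac summits with TGFB1 and 19 in vehicle, 2 JUNB summits with TGFB1 and 1 in vehicle, and 3 ATF3 summits with TGFB1 and 4 in vehicle. ROBO2 had 27 H3K27ac summits with TGFB1 and 21 in vehicle and 14 ATF3 summits with TGFB1 and 5 in vehicle, again without SMAD2/3. Its JUNB summits numbered 10 with TGFB1 and 7 in vehicle. These genes are among the longest of the group, and the depth of the ATF3 pair differed as given above. Their length class starts at 152 kb and is open above. In it, the ATF3 count with TGFB1 was reached by 1.57% for DCC, 12.3% for ROBO2, 16.8% for SEMA5A and 82.1% for EPHA3. For JUNB with TGFB1 the share was 6.02% for DCC and SEMA5A and 88.0% for EPHA3.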
